A study of Mus musculus with 15 samples.

Results

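Ring1A+B-DKO embryonic stem cells, which lack both ubiquitin ligases of Polycomb repressive complex 1 (PRC1), were compared with the wild-type mouse line E14-WT over every gene that the authors' deposited table gives a value for. The comparison uses 6 of the 15 RNA-seq samples of the series, 3 per group, which the series' design text calls biological replicates. It covers 19693 of the 38355 genes in the table. Ring1A+B-DKO is null for Ring1A (gene Ring1) and Ring1B (gene Rnf2), with the genotype Ring1A-/-;Ring1B-/-. E14-WT is the line E14TG2a. Both lines grew in 2i on gelatin, a medium with LIF, the MEK inhibitor PD0325901 and the GSK3 inhibitor CH99021 that keeps mouse embryonic stem cells in the naive pluripotent state. The other groups are Suz12-KO and Ezh2-KO, which are null for core subunits of the second Polycomb complex, PRC2, and Ezh2-WT, a wild-type line with floxed Ezh2 alleles. The wild-type parent of the double knockout was not among the samples, and the labels give neither the origin of the line nor its number of clones. The deletion and any other difference between the lines therefore cannot be told apart in what follows.

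PRC1 places ubiquitin on histone H2A and compacts chromatin. Its forms share a Ring1A or Ring1B core and differ in the Pcgf protein bound to it. Canonical PRC1 holds Cbx proteins, which read the histone H3 methylation made by PRC2, whereas variant PRC1 holds Rybp or Yaf2 and is recruited by other DNA-binding subunits. In embryonic stem cells PRC1 is best known at CpG island promoters of developmental regulators, and the variant form with Pcgf6, Mga, Max and E2f6 is known at promoters of germline genes. The comparison asks which transcripts change when both ligases are missing.

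Every fold change and call printed here comes from the authors' deposited table, which gives 1 log2 fold change per gene and comparison and states whether the gene was called, with no value per sample, standard error or p-value. So neither values in single samples, nor the spread between replicates, nor sequencing depth can be shown. Fold changes run as Ring1A+B-DKO over E14-WT, which is the sign opposite to the deposited column. All 2259 genes that the pattern of missing values shows to lack reads in E14-WT are negative as deposited, so that column holds E14-WT over Ring1A+B-DKO. Genes rose or fell only where the authors called them, and how they set that call is not given in the sources used here.

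The transcriptome of Ring1A+B-DKO cells differed from that of E14-WT mostly by increases. The authors called 591 of 19693 genes (3.00%), of which 469 rose (2.38% of the genes with a value) and 122 fell (0.620%). Protein-coding genes made up 438 of the increases and 106 of the decreases. The median log2 fold change was 1.80 among the genes that rose and -1.51 among those that fell, against 0.07 over all genes. A change of at least 2 was reached by 139 increases and 27 decreases, and one of at least 3 by 14 and 1. Size alone did not set the call. At a log2 fold change of 1 or more, 1326 genes (6.73%) were higher and 269 (1.37%) lower, of which 857 and 147 were not called. Uncalled examples, chosen after their values were seen, are Trim43a at 2.02, the thyroid factor gene Foxe1 at 1.63, Fgr at -1.59 and Zfy1 at -1.53. The smallest called changes were 1.01 among increases and 1.00 among decreases.

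**Figure D1:**
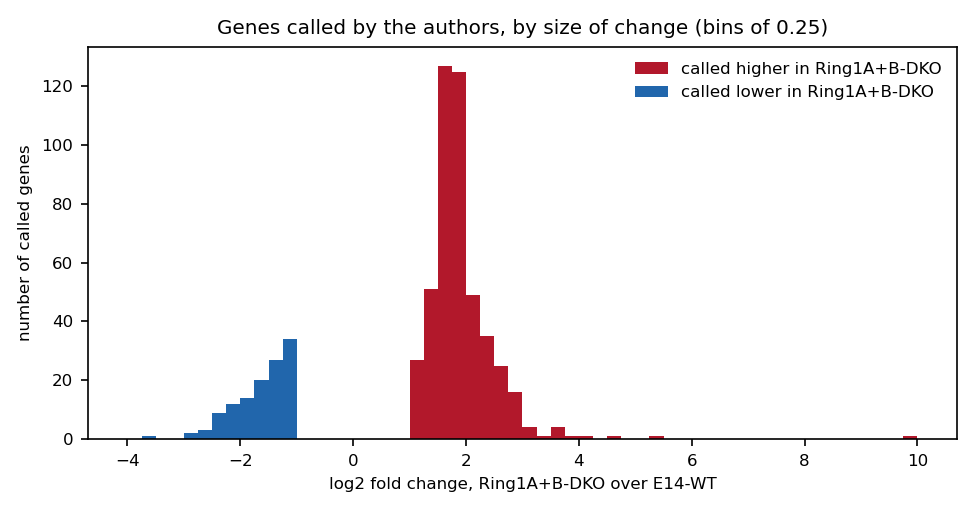
Number of called genes (vertical axis) by log2 fold change, Ring1A+B-DKO over E14-WT (horizontal axis, bins of 0.25), from the authors' deposited table. The 469 genes that rose have a median of 1.80 and the 122 that fell one of -1.51, no called gene lies between -1 and 1, and Rprl3 stands alone at 9.83.

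A minority of the increases were of genes without reads in E14-WT. Of the 469 genes that rose, 51 were shown to lack reads in E14-WT, and 418 were not, which does not show that all of them had reads there. The rate of increases was 2.26% of 2259 genes shown to lack E14-WT reads and 2.40% of the other 17434. Of those 2259 genes, 1275 had reads in Ring1A+B-DKO and in none of the other 4 lines, and 15 of the 1275 rose. In the authors' deposited table these included the neural regulator Zic1 at 2.11, the synaptonemal complex gene Sycp2 at 1.93, the urokinase gene Plau at 1.82, the homeobox gene Msx1 at 1.69 and the Hox antisense transcript Hoxa11os at 1.65. Since all genes without E14-WT reads must lie above 0, and their median was 0.20, these values are no lower bounds on the change.

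The deleted genes gave different readings. Ring1 fell to -2.03 in Ring1A+B-DKO, while Rnf2 stood at 0.17 and was not called. A gene's single value also counts reads from exons that a deletion leaves, and Rnf2 overlaps other annotated genes. The labels do not give the deleted exons, so 0.17 checks nothing for Rnf2. Among the other subunits of canonical PRC1, the polyhomeotic gene Phc1 fell to -1.68 and its relative Phc2 rose by 1.15. The chromodomain genes Cbx8, Cbx7 and Cbx2 stood at 1.24, -0.64 and -0.51, without a call. Of 18 variant PRC1 genes 1 was called, as Kdm2b, whose product brings PRC1 to unmethylated CpG, fell to -1.32. E2f6, Yaf2 and Pcgf5 stood uncalled at 1.05, 0.99 and 0.79. None of 12 PRC2 subunit genes was called, where 3.00% of all genes were, with a median of 0.17 and a range from Eed at -0.55 to Phf19 at 0.76.

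Germline genes rose. Across 3 lists, for the piRNA pathway, meiosis and other germ cell genes, 25 of 85 members with a value rose and 0 fell, where 2.38% and 0.620% of all genes did. Their median was 0.94 against 0.07 over all genes. These lists, like all others here, were chosen with earlier results of these data known, so the shares describe the lists and test nothing. The oocyte genes Obox6 and Ooep, which are outside the lists, fell. One of the 25, Sycp2, was shown to lack reads in E14-WT. In bulk RNA, more cells of a type and more RNA per cell cannot be told apart.

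The piRNA pathway makes small RNAs that silence transposons in germ cells, and all of its 17 members with a value stood above 0, with a median of 1.41. Tudor proteins assemble its granules: Tdrd1 rose by 3.62, Tdrd9 by 2.39 and Tdrkh by 1.83. Mael and the helicase gene Mov10l1, both needed to make piRNAs, rose by 2.93 and 2.85. Piwil2, which encodes a Piwi protein that binds the small RNAs, rose by 2.43. Asz1 and Gpat2, of the granules next to mitochondria, rose by 1.74 and 1.16. The helicase gene Ddx4, a germ cell marker, stood at 1.52, Tdrd7 at 1.41 and Tdrd5 at 1.21, without a call.

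Of 30 meiosis genes 7 rose, with a list median of 0.93. Synaptonemal complex genes were among them, as Sycp1 rose by 2.65, Sycp2 by 1.93 and Syce1 by 1.81. Meioc, needed to keep cells in meiotic prophase, rose by 1.98, Mei1 by 2.18, the germ cell transcription factor subunit Taf7l by 2.12 and the ATP carrier gene Slc25a31 by 1.86. Stra8, which triggers entry into meiosis, stood at 1.44 without a call, and the cohesin gene Smc1b and Tex11 at 1.57 and 1.47. The recombinase gene Dmc1 was at the other end of the list, at -0.31, beside the crossover regulator Prdm9 at -0.11.

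Other germ cell genes rose in 13 of 41 cases, 3 of them (Tdrd1, Mov10l1 and Sycp1) also in the lists above. Dppa3, known for protecting the maternal genome from demethylation, had the largest increase of the 3 lists, 4.19, and has a near-identical pseudogene at 0.53 without a call. Tex101, a sperm membrane protein gene, rose by 3.50, and Pramel6, expressed in oocytes and early embryos, by 2.74. Testis enzyme and chromatin genes followed, with Ldhc at 2.16, Tex19.2 at 2.06, the CTCF relative Ctcfl at 1.82 and the bromodomain gene Brdt at 1.79. Dazl, an RNA-binding regulator of germ cell fate, stood at 1.13 without a call. Regulators that specify primordial germ cells were not called, with Prdm1 at -0.14, Tfap2c at 0.14 and Prdm14 at -0.47. The Rhox cluster of reproductive homeobox genes on the X chromosome had 3 increases among 10, Rhox6 by 3.13, Rhox9 by 2.81 and Rhox5 by 1.01, and its other 7 members lay between -0.11 and 0.94.

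**Figure D2:**
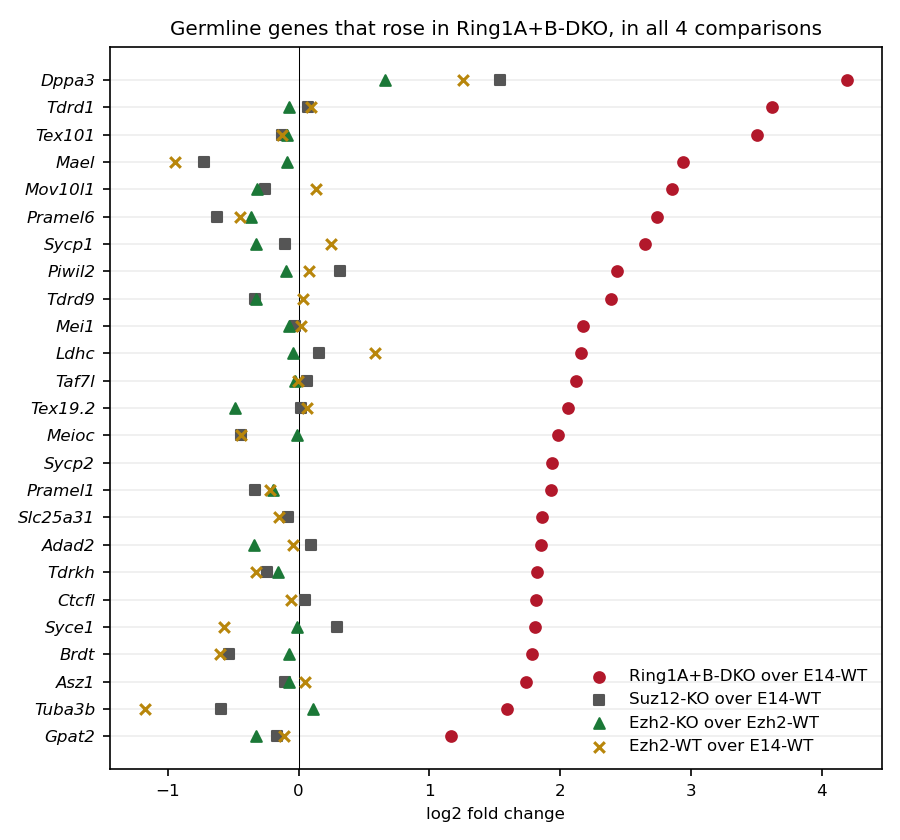
Log2 fold change (horizontal axis) of the 25 germline genes that rose in Ring1A+B-DKO (rows, largest at the top) in the 4 comparisons of the authors' deposited table; a missing mark means that no value was given. The Ring1A+B-DKO values run from 1.16 for Gpat2 to 4.19 for Dppa3, those of Suz12-KO over E14-WT from -0.72 to 1.54, those of Ezh2-WT over E14-WT from -1.18 to 1.25 and those of Ezh2-KO over Ezh2-WT from -0.49 to 0.66.

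The same 25 genes had other values in the other comparisons, which were not tested against Ring1A+B-DKO. Suz12-KO and Ezh2-WT were set against the same E14-WT libraries, and Ezh2-KO against Ezh2-WT. Between Ezh2-KO and Ezh2-WT, a pair that shares no library with Ring1A+B-DKO and E14-WT, 22 of the 25 genes have a value, and these ranged from -0.49 to 0.66. In Suz12-KO over E14-WT 24 of the 25 have a value, and the largest was Dppa3 at 1.54, which was called, and the lowest Mael at -0.72. The germline lists had a median of 0.94 over 85 members in Ring1A+B-DKO over E14-WT. Their median was -0.10 over 76 members in Suz12-KO over E14-WT, -0.06 over 78 in Ezh2-WT over E14-WT and -0.09 over 73 in Ezh2-KO over Ezh2-WT.

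The promoters of the germline genes were read for CACGTG, the letters that the Mga and Max pair is known to bind. RefSeq promoters (GRCm38.p6, 250 bases before to 50 after a start) matched 22 of the 25 genes that rose. CACGTG, which reads the same on both strands, occurred in 9 of these 22 (40.9%). It occurred in 11 of 50 uncalled germline members with a promoter (22%) and in 1374 of 12159 protein-coding genes with a value (11.3%). Of all 32851 promoter windows of 300 bases, 7.15% held it. Counting the 250 bases before the start alone gave 36.4% for the germline genes that rose and 9.62% for all protein-coding genes. The longer letters TCACGTGA, which contain CACGTG, were found in 0 of the 22 and in 1.89% of all protein-coding genes. GGCGGGAA, a form of the letters bound by E2F proteins, read on both strands, was found in 9.09% of the 22, in 16% of the 50 uncalled germline members and in 4.50% of all, and shares no letters with CACGTG by overlap. A match is a description and not a binding site. Those printed below all lie upstream of the annotated start, with CACGTG in capitals and the letters in the direction of the gene. They are shown because they belong to 8 of the 9 genes with the letters. In Adad2 they lie after the start.
Tdrd1, chr19:56826168-56826208, plus strand, CACGTG 11 bases before the start: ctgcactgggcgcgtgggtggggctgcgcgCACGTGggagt
Mael, chr1:166238932-166238994, minus strand, 223 bases before the start: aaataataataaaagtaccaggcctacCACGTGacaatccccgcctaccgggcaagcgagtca
Mov10l1, chr15:88982744-88982783, plus strand, 246 bases before the start: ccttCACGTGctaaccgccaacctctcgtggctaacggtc
Sycp1, chr3:102936159-102936224, minus strand, 94 bases before the start: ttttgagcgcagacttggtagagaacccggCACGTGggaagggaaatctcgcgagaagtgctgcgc
Tdrd9, chr12:111971364-111971429, plus strand, 165 bases before the start: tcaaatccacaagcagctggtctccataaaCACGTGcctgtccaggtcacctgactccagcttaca
Taf7l, chrX:134476504-134476569, minus strand, 49 bases before the start: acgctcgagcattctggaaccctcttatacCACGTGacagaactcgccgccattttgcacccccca
Slc25a31, chr3:40708748-40708813, plus strand, 93 bases before the start: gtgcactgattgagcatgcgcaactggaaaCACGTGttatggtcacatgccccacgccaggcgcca
Brdt, chr5:107331086-107331151, plus strand, 78 bases before the start: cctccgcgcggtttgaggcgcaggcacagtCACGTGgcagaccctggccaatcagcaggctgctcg

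The letters next to CACGTG differ among these 8 promoters, and the printed distances to the start run from 11 to 246 bases. Only 1 match and 1 start are printed per gene. The Tdrd1 match also lies 77 bases before another annotated start, and Tdrd9 has another match 95 bases before its start. CpG-rich promoters, with an observed over expected CpG ratio of at least 0.6 and at least 50% GC, made up 63.6% of the 22, 54% of the 50 uncalled germline members and 66.7% of all protein-coding genes. The 86 genes that fell and have a matched promoter held CACGTG in 5.81% and were CpG-rich in 58.1%. For all genes that rose, 341 of 427 protein-coding genes off chromosome 18 matched a promoter (79.9%), under the 80% set as a minimum, so the same shares are void for that class.

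Developmental transcription factors, the best known PRC1 targets, stood above the median of all genes as classes, and a larger share of them rose than the 2.38% of all genes. All 34 Hox genes with a value stood above 0, with a median of 0.66. Of these, 4 rose (11.8%), Hoxd13 by 2.51, Hoxa9 by 2.14, Hoxd8 by 1.94 and Hoxd9 by 1.56, and Hoxd11 and Hoxd3 stood at 1.42 and 1.37 without a call. As 19 of the 34 were shown to lack reads in E14-WT, those could not lie below 0. Of 86 other homeobox genes 6 rose (6.98%) and 1 fell, with a median of 0.58. Barx1, a stomach and tooth regulator, rose by 2.75, and Otx2, which guides exit from the naive state, by 1.88. Six2 of kidney progenitors, Meis1, Msx1 and the hindlimb factor gene Pitx1 rose by 1.82, 1.80, 1.69 and 1.65. Gbx2, a naive pluripotency factor gene as well as a hindbrain one, fell to -1.97.

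Other factor families gave further increases, and the bHLH factors gave decreases as well. Of 28 Pax, Sox and Gata genes 4 rose (14.3%). The endoderm factor genes Gata6 and Gata4 rose by 2.69 and 2.39, the muscle progenitor factor gene Pax7 by 1.79 and Gata2 by 1.67, while Pax6, of eye and brain, stood at 1.47 without a call. Of 30 forkhead and T-box genes 3 rose (10%), all T-box genes of heart or epicardium, with Tbx20 at 2.77, Tbx2 at 2.62 and Tbx18 at 1.71. Among 33 bHLH lineage factors 3 rose (9.09%) and 2 fell (6.06%), where 2.38% and 0.620% of all genes did. Id2 rose by 2.24, the circadian repressor gene Bhlhe41 by 2.12 and the somite factor gene Mesp2 by 1.77. The neighbouring genes Olig2 and Olig1 of oligodendrocyte precursors fell to -2.37 and -1.79.

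**Figure D3:**
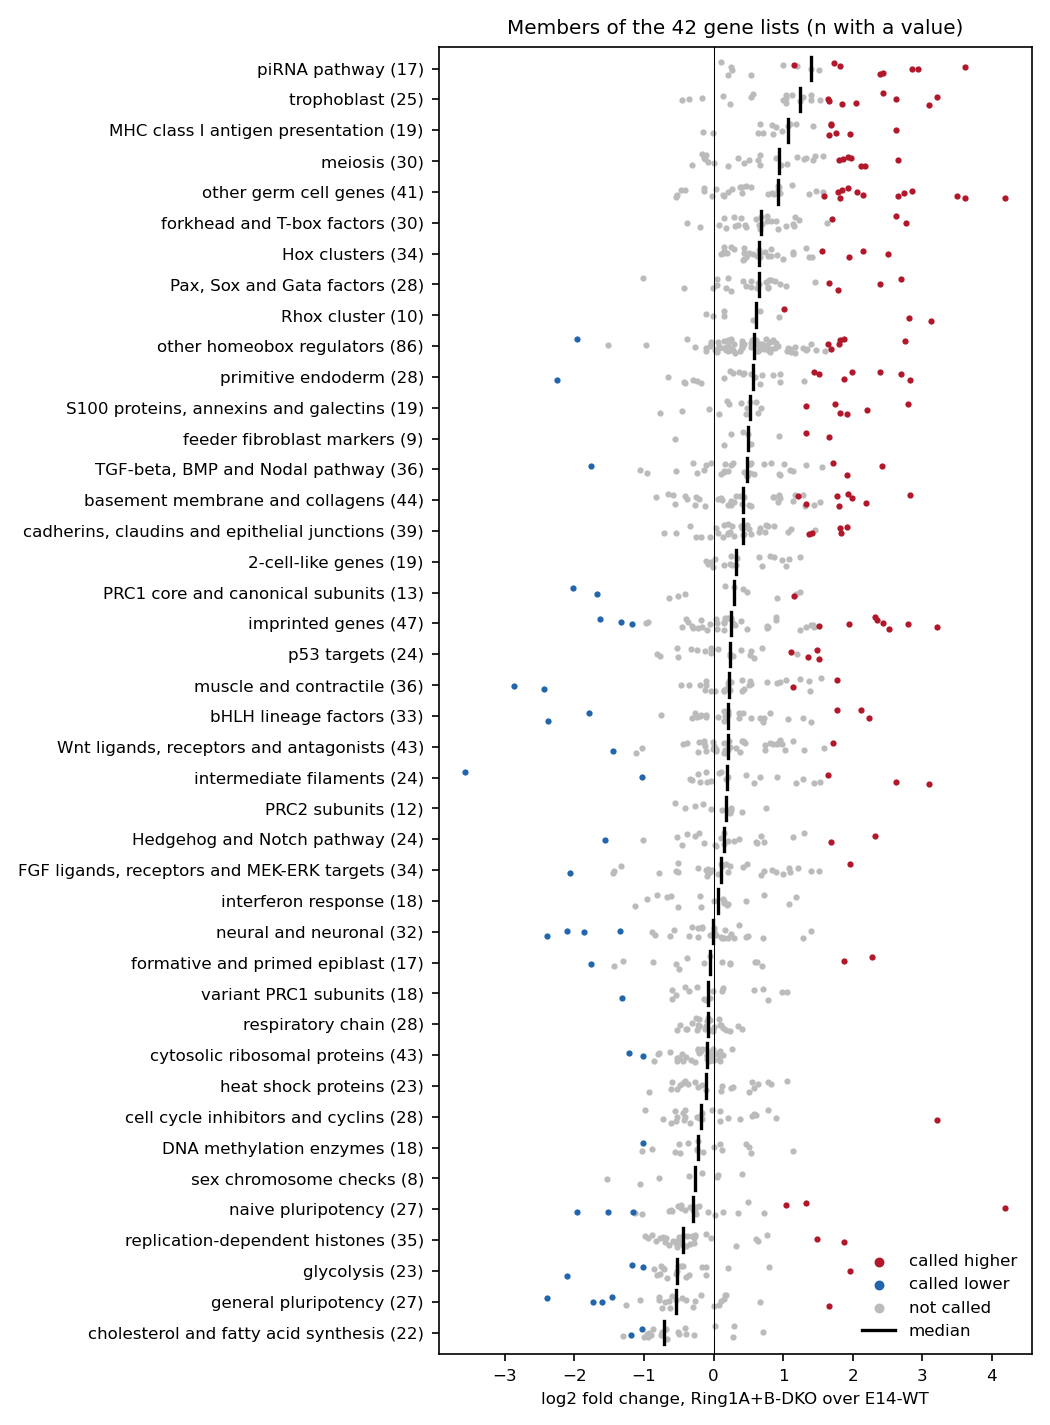
Log2 fold change, Ring1A+B-DKO over E14-WT (horizontal axis), of each member with a value in 42 gene lists, from the authors' deposited table; the number of members stands in brackets, dots are coloured by the authors' call and bars mark medians. Lists run from the piRNA pathway at a median of 1.41 down to cholesterol and fatty acid synthesis at -0.71, against 0.07 over all genes.

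Some markers of the extraembryonic lineages rose. Trophoblast genes had 8 increases (32%) and 0 decreases among 25 and a median of 1.24, where 2.38% of all genes rose and 0.620% fell. Cdkn1c, a cell cycle inhibitor needed in placenta, rose by 3.21. The simple-epithelium keratins Krt18 and Krt8 rose by 3.10 and 2.62 and Krt7 by 1.64. Peg10, an imprinted gene needed for placenta, rose by 2.44, Tfap2a by 2.04 and the X-linked Esx1 by 1.85. The factors that define trophoblast stem cells were not called, with Eomes at 1.04, Cdx2 at 0.57 and Elf5 at 0.24. Ascl2 and Krt19 stood at 1.40 and 1.53.

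Primitive endoderm genes had 7 increases (25%) and 1 decrease (3.57%) among 28, with a median of 0.57, where 2.38% of all genes rose and 0.620% fell. Besides Gata6 and Gata4 these were the basement membrane collagens Col4a2 (2.83) and Col4a1 (2.00), the endocytic adaptor gene Dab2 (1.87), the growth inhibitor gene Grb10 (1.52) and the receptor gene Lrp2 (1.45). Apoa2, an apolipoprotein of visceral endoderm, fell to -2.26. The receptor gene Pdgfra, a standard marker of the lineage, stood at 1.29, Sox7 at 0.96, Foxa2 at 0.70 and Sox17 at 0.53, without a call.

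Some matrix, junction and membrane genes rose, where 2.38% of all genes rose and 0.620% fell. Of 44 basement membrane and collagen genes 8 rose (18.2%) and 0 fell, including the laminin genes Lamb3 by 2.20, Lama4 by 1.94 and Lama5 by 1.21, and the fibrillin gene Fbn2 by 1.81. The laminin genes Lamc1 and Lama1, part of the embryonic laminin, stood at -0.66 and -0.42. Of 39 cadherins, claudins and junction genes 5 rose (12.8%) and 0 fell, with Dsc2 and Dsp of desmosomes at 1.93 and 1.42, the P-cadherin gene Cdh3 at 1.83, Cldn7 at 1.82 and Epcam at 1.38. The E-cadherin gene Cdh1 stood at 0.41. Of 19 S100 proteins, annexins and galectins 6 rose (31.6%) and 0 fell, led by the gut galectin gene Lgals4 at 2.80, Anxa3 at 2.21 and Anxa2 at 1.92.

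The level of another cell type's genes was read beside these classes. Feeder fibroblast markers had 9 of 12 genes with a value, a median of 0.49 and a range from Fn1 at -0.56 to Thy1 at 1.66. Thy1 and Col5a1 rose, by 1.66 and 1.33, Col1a1, Col1a2 and Col3a1 stood at 0.94, 0.42 and 0.25, and Lum, Postn and S100a4 had no reads in either group. Their part in the increases was not tested. Of the 9 feeder markers 8 stood above 0. Among the marker sets of the other cell types, 6 of 6 germ cell, 10 of 10 trophoblast and 9 of 10 primitive endoderm markers stood above 0. Markers shown to lack reads in E14-WT, among them 3 feeder markers and Gata6, could not lie below 0. Of all genes, 44.6% stood below 0. The germ cell markers include Mael, Sycp1 and Tex101, already counted among the increases above. Of 5 neural markers 4 stood above 0, but the only one called, Tubb3, fell, and in the wider neural list 16 of 32 genes stood above 0. Naive stem cell markers stood above 0 in 4 of 10 cases, with a median of -0.13, and all 10 had reads.

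Pluripotency genes were called in both directions, where 2.38% of all genes rose and 0.620% fell. Of 27 naive genes 3 rose (11.1%), Dppa3, Fbxo15 by 1.32 and Klf4 by 1.04. Another 3 fell (11.1%), Gbx2, the orphan receptor gene Nr0b1 (-1.51) and the threonine dehydrogenase gene Tdh (-1.16). The median of the naive genes was -0.30. General pluripotency genes lay lower, with 1 increase (3.70%), 4 decreases (14.8%) and a median of -0.55 over 27. The chromatin protein gene Hmga1 fell to -2.39, while its relative Hmga2 rose by 1.67. Lin28a, which blocks let-7 processing, fell to -1.74, and the factor genes Zscan10 and Sall4 to -1.60 and -1.46. The core factors were not called, with Pou5f1 at -0.18, Nanog at -0.26 and Sox2 at -0.60.

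A few signalling genes rose or fell, where 2.38% of all genes rose and 0.620% fell. In the TGF-beta class of 36 genes 3 rose (8.33%) and 1 fell (2.78%). Bmp1, a protease that matures collagen, rose by 2.42, the ligand gene Tgfb1 by 1.93 and its receptor gene Tgfbr2 by 1.72, and the Nodal inhibitor gene Lefty1 fell to -1.77. Lefty1 also fell in Ezh2-WT over the same E14-WT libraries, to -1.72, and has a near-identical copy, Lefty2, at -0.14. Among 34 FGF and MEK-ERK genes 1 rose (2.94%), Fos by 1.97. The ERK target Etv5 alone fell (2.94%), to -2.06, beside Etv4 at -1.43 and Fgf17 at -1.45 without a call. Of 43 Wnt genes 1 rose (2.33%), Wnt7b by 1.72, and 1 fell (2.33%), the receptor gene Fzd5 to -1.45. The shares that rose in these 2 classes lie near that of all genes. Of 24 Hedgehog and Notch genes 2 rose (8.33%), Dlk1 by 2.33 and the ligand gene Jag2 by 1.69. The receptor gene Notch4 alone fell (4.17%), to -1.55.

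Some neural genes fell, while the class as a whole stood near 0. Of 32 neural genes 0 rose and 4 fell (12.5%), where 2.38% of all genes rose and 0.620% fell. The median was -0.01, 16 of the 32 stood above 0, and Reln, a secreted guide of migrating neurons, stood highest at 1.40 without a call. Those that fell were the neuronal tubulin gene Tubb3 at -2.10, Pnma2 at -2.40, Stmn2 at -1.86 and the adhesion gene Ncam1 at -1.34. Vim, the intermediate filament gene of mesenchyme, had the largest decrease of all, to -3.57. It was called lower also in Ezh2-WT over the same E14-WT libraries, at -1.92, and was called higher in Suz12-KO, at 1.44. Muscle genes stood above 0 in 27 of 36 cases, with a median of 0.23, and 2 rose and 2 fell. As 11 of the 36 were shown to lack reads in E14-WT, those could not lie below 0, where 44.6% of all genes stood. The myosin light chain gene Mylpf and the titin gene Ttn fell to -2.87 and -2.44, and Cald1 and Tpm1, expressed also outside muscle, rose by 1.78 and 1.15.

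Metabolic genes stood mostly below 0, where 44.6% of all genes did. Of 22 cholesterol and fatty acid synthesis genes 18 stood below 0 and 2 fell (9.09%, against 0.620% of all genes), with a median of -0.71. The citrate lyase gene Acly fell to -1.18, and Idi1 stood at -1.31 without a call. Of 23 glycolysis genes 20 stood below 0 and 3 fell, with a median of -0.53. Pkm fell to -1.17, Gapdh to -1.02 and Eno1 to -2.11, while the neuronal enolase gene Eno2 rose by 1.96. Replication-dependent histones had a median of -0.44 over 35 genes, and both that rose, Hist1h2ba by 1.87 and its neighbour Hist1h2aa by 1.48, are testis variants. The replication clamp gene Pcna, the replication licensing gene Cdc6 and the methylation maintenance factor gene Uhrf1 fell to -1.16, -1.25 and -1.01, of which the first 2 were chosen after their values were seen. Classes near 0 were the respiratory chain, with a median of -0.09 and 0 of 28 called, and heat shock proteins, with -0.10 and 0 of 23, where 3.00% of all genes were called.

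Cell cycle, p53 and class I genes were read against the 2.38% of all genes that rose. Cdkn1c was the 1 call among 28 cell cycle genes, and the inhibitors Cdkn2b, Cdkn1a and Cdkn2a, the last a known Polycomb target, stood at 0.62, 0.58 and 0.55. Of 24 p53 targets 4 rose (16.7%), Perp by 1.51, Btg2 by 1.48, Ddit4l by 1.36 and Plk2 by 1.12. The class I antigen presentation genes had 6 increases among 19 (31.6%) and a median of 1.08, with H2-Q7 at 2.63, H2-Bl at 1.97, H2-Q2 at 1.76, the immunoproteasome gene Psmb9 at 1.70, H2-Q10 at 1.69 and the peptide transporter gene Tap1 at 1.66. The classical gene H2-K1 and the class I activator gene Nlrc5 stood at 1.19 and 1.11. These genes resemble each other in sequence, and H2-Q7 and H2-Bl have near-identical copies at 0.54 (H2-Q5) and -2.29 (Gm8909, which fell). Outside the list, the class I gene H2-M5 also fell, to -1.33. Of 18 interferon response genes 0 were called, where 3.00% of all genes were, with a median of 0.07, and Bst2 and Ifitm3 stood at 1.18 and -1.12. No gene of the 2-cell embryo list was called among 19, with a median of 0.32 and Usp17la highest at 1.25.

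Imprinted genes gave 8 increases and 3 decreases (6.38%) among 47, where 2.38% of all genes rose and 0.620% fell. The neighbours H19 and Igf2 rose by 2.79 and 2.35. Elsewhere, Cdkn1c rose by 3.21 and Sfmbt2 by 2.52. In the Dlk1-Dio3 domain the paternally expressed Dlk1 and Dio3 rose by 2.33 and 1.95. The maternally expressed RNAs Mirg and Rian of that domain fell to -1.64 and -1.17, and Meg3 stood at -0.30. Peg3 fell to -1.33. Sfmbt2 was also called in Suz12-KO over the same E14-WT libraries, at 1.44.

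Some called genes are close copies of others, and their reads could be divided between copies by the authors' counting. Of 12 processed pseudogenes that rose, 11 have a near-identical protein-coding copy with a value. In 10 at least 1 such copy stood below 0, where 44.6% of all genes stood. Gm11942, Ftl2-ps and Gm13841 also have a protein-coding copy above 0, Gm10073 at 2.86, Ftl1-ps1 at 3.35 and Uimc1 at 0.12. Gm8420 rose by 3.55 beside Rpl15 at -0.23, Gm11223 by 2.73 beside Stmn1 at -0.87 and Gm13456 by 2.35 beside Eef1a1 at -0.15. In 5 cases, Gm8909 with H2-Bl among them, a gene that fell has a copy that rose. Eno1 fell to -2.11 and Eno1b, 99.5% identical over 1736 nt, rose by 2.95. Rplp1 fell to -1.21 and its copies Gm11942 and Gm10073 rose by 4.70 and 2.86. Rpl3 fell to -1.01 and Rpl3-ps1 rose by 1.59, and the small RNA gene Gm25939 fell to -1.64 while Gm25813 rose by 5.38. Hmga1 stood beside Hmga1b at 1.48 without a call. The values of these genes, and of the ribosomal, ferritin and enolase copies among the largest increases, are uncertain. Of the 336 genes chosen for naming, 29 have a near-identical copy with a value and 151 overlap another annotated gene.

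**Figure D4:**
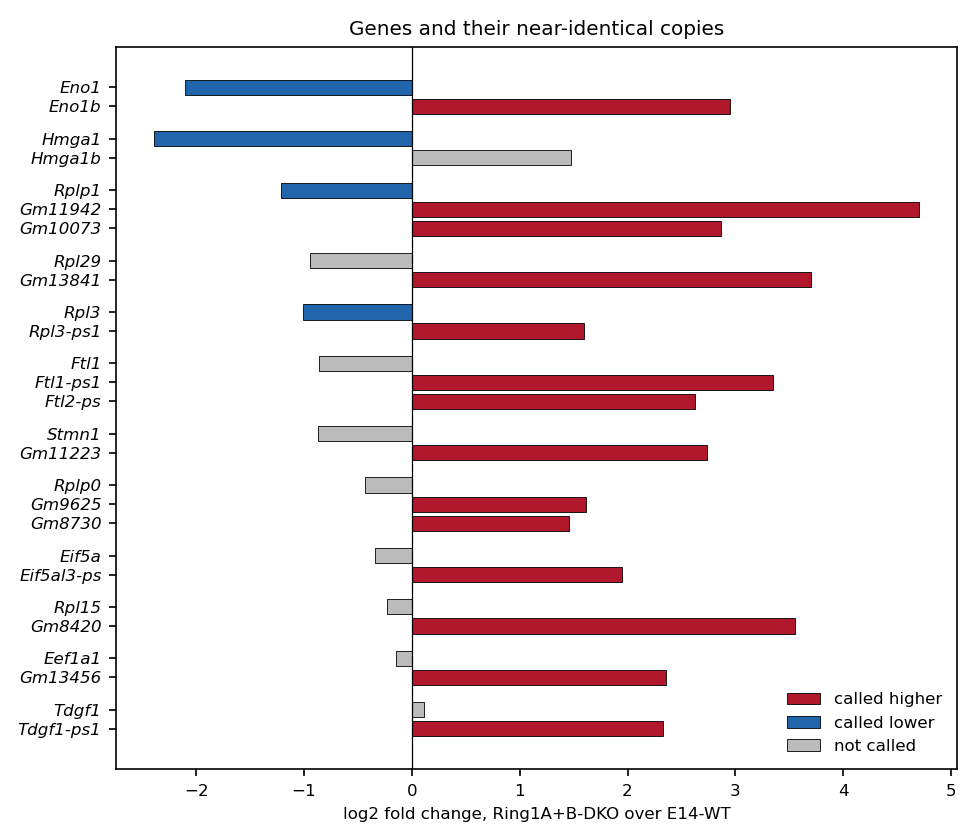
Log2 fold change, Ring1A+B-DKO over E14-WT (horizontal axis), of 12 genes and of their near-identical copies (rows, each gene above its copies), from the authors' deposited table, coloured by the authors' call. Of the 12 genes at the top of each set 11 stand below 0, from Hmga1 at -2.39 to Eef1a1 at -0.15. The copies drawn run from 1.46 for Gm8730 to 4.70 for Gm11942. Genes and copies were chosen after their values were seen, so the opposite directions follow from that choice. Copies left out include Gm4735 of Eno1 at 0.47, and Gm12816 and Rpl3-ps2 of Rpl3 at -0.43 and 0.15, without a call.

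Called genes lay on each autosome and on X, and the share of decreases was highest on chromosome 17, which carries Ring1. Decreases made up 1.86% of 912 genes there and 1.41% of 640 on chromosome 14, against 0.620% of all genes. Increases ran from 1.48% on chromosome 10 to 3.64% on chromosome 6, against 2.38%. Within 5 Mb of Ring1, a region that holds the major histocompatibility complex, 10 of 251 genes rose and 8 fell (3.98% and 3.19%). On the rest of chromosome 17 it was 14 and 8 of 660 (2.12% and 1.21%). The genes near Ring1 that fell included Myo1f (-2.33), Ubd (-2.15), Notch4 (-1.55), the class I gene H2-M5 (-1.33) and Gabbr1 (-1.07). Those that rose included Cbs (1.28) and Sik1 (1.22) besides other class I genes. Myo1f and Cbs were also called in Ezh2-WT over the same E14-WT libraries, at -2.25 and 1.22. Within 5 Mb of Rnf2, 2 of 54 genes rose and 1 fell, BC034090 by 2.08, Ivns1abp by 1.04 and Nmnat2 to -1.92. The genes near Ring1 and Rnf2 were chosen by position after their values were seen.

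**Figure D5:**
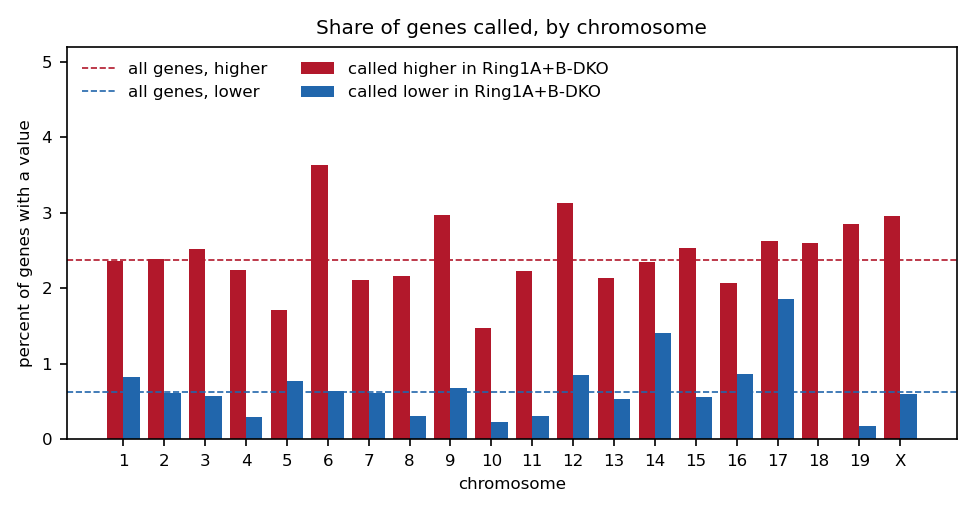
Percent of genes with a value that the authors called higher or lower in Ring1A+B-DKO than in E14-WT (vertical axis), by chromosome (horizontal axis); dashed lines mark 2.38% and 0.620%, the shares over all genes. Chromosome 17 has the highest share of decreases, 1.86%, chromosome 6 the highest share of increases, 3.64%, and chromosome 18 has 0 decreases among 462 genes.

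Neighbouring genes were called together in 20 runs of increases, with 41 genes, and 5 runs of decreases, with 11 genes, counting genes with a value that lie next to each other. Of all genes, 2.38% rose and 0.620% fell. How many runs these shares alone would give was not worked out, so the counts do not show that called genes cluster. The 2 longest runs held 3 genes. Myrf (1.59), Dagla (1.91) and Syt7 (1.68) rose on chromosome 19, and Mylpf (-2.87), Sept1 (-2.09) and Zfp553 (-1.13) fell on chromosome 7, at 127208890 to 127238179 in GRCm38. Pairs included Krt8 with Krt18, Col4a1 with Col4a2, H19 with Igf2, Psmb9 with Tap1, Rhox5 with Rhox6 and Hist1h2ba with Hist1h2aa among increases, and Olig2 with Olig1 and Prmt5 with Haus4 among decreases. Several pairs are related or overlapping genes.

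Some genes were called both in Ring1A+B-DKO and in a PRC2 knockout. Of the 591 genes called in Ring1A+B-DKO (3.00% of those with a value) and the 32 called in Ezh2-KO over Ezh2-WT (0.177%), 7 were called in both, 1.18% of the first list and 21.9% of the second. Among these, Gsto1 was higher in both, at 1.39 and 1.19. The other 6 were higher in Ring1A+B-DKO over E14-WT and lower in Ezh2-KO over Ezh2-WT. They were App at 1.78 and -1.90, Gata2 at 1.67 and -2.68, Bhlhe41 at 2.12 and -1.58, Eno2 at 1.96 and -1.51, Adcy1 at 1.38 and -1.57 and Grb10 at 1.52 and -1.22. Gata2, Eno2 and Bhlhe41 also rose in Ezh2-WT over E14-WT, by 2.58, 2.23 and 2.08, so their values differ between the wild-type lines. Suz12-KO shares its E14-WT libraries with Ring1A+B-DKO, so no overlap of their calls is read, and 0.200% of genes were called in Suz12-KO. For genes called in both, values in Ring1A+B-DKO and in Suz12-KO were 1.01 and 1.72 for Rhox5, 1.13 and 1.24 for the glypican gene Gpc3, 1.45 and -1.66 for Lrp2, 1.52 and -1.48 for Grb10, and -2.44 and -1.34 for Ttn.

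Ezh2-WT was set against the same E14-WT libraries, and 0.607% of genes were called in it. Genes called both there and in Ring1A+B-DKO included the melanosome glycoprotein gene Gpnmb at 2.98 in Ring1A+B-DKO and 2.58 in Ezh2-WT, the innate immune receptor gene Nod1 at -1.91 and -3.15, and the aquaporin gene Aqp8 at 1.70 and 2.18. A difference between wild-type lines and the loss of Ring1A and Ring1B cannot be told apart for them. Of the 469 genes that rose, 440 have a value in Ezh2-WT over E14-WT, with a median of 0.16. All 122 that fell have one, with a median of -0.44, against -0.02 over all genes in that comparison. The 469 and 122 genes were selected against the same E14-WT libraries. A shift of the same sign is therefore partly fixed in advance, and nothing is concluded from these medians. Between Ezh2-KO and Ezh2-WT, with no shared library, the medians were -0.09 over 436 genes that rose and 0.09 over the 122 that fell.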

How the data were processed

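Total RNA of 15 samples in 5 groups was sequenced after removal of small and ribosomal RNA, per the labels' protocols. The submitters' processing notes name TopHat, featureCounts, DESeq2 and GRCm38 (mm10). Versions, settings, strand use and call criteria: not given in the sources used here. For 38355 Ensembl release 72 genes and 4 comparisons the authors deposited DESeq2 log2 fold changes, each with a call, per the file headers. No counts were used here, so a planned edgeR test gave way to the authors' call, and depth and replicate spread are unknown. A missing value was read as no reads in both groups. Genes with reads on 1 side alone fixed each column's sign, and the 3 columns against E14-WT were turned. The rule was tested on simulated data.

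GENCODE mouse release 21 (GRCm38) gave symbols and coordinates and matched 36602 identifiers (95.4%). A near-identical copy is a transcript that blastn 2.17.0 aligned with 95% identity, across 100 nt or more and 50% or more of the shorter one. Members and the 42 lists were chosen with earlier results of these data known. Named genes are the deleted genes, the 30 largest increases and 25 largest decreases called (no Gm or Rik models), called list members, up to 4 uncalled and 3 further members per list, and runs of at least 3. Others were chosen after their values were seen. Promoters on chromosome 18 were not used, and some genes are not reported here. Computations used Python 3.11.15, numpy 2.4.6, pandas 2.3.3 and matplotlib 3.10.9. Alternatives were other size limits, gene classes, centring, means and other motif and CpG limits.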

Additional observations from a re-analysis of the deposited data

How the results depend on the processing

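Increases outnumbered decreases under each alternative tried. Increases numbered 469 and decreases 122 in the authors' deposited table. At a log2 fold change of at least 1 with no call required they numbered 1326 and 269, and after centring on the median of all genes, a shift of 0.07, they numbered 1163 and 349. Called genes with an absolute change of at least 1.5 numbered 391 and 61, and with at least 2 they numbered 139 and 27. Called genes that overlap no other annotated gene numbered 263 and 58. Limits to genes not shown to lack reads in E14-WT, to unshared values, to protein-coding genes and to genes not called between the wild-type lines kept both counts within 1.5 times. List medians kept their sign in 42 of 42 lists after centring, in 38 with the mean and in 41 with members not shown to lack reads in E14-WT. The mean turned the variant PRC1 list to 0.0029 (median -0.08), the cell cycle list to 0.011 (median -0.18), heat shock proteins to 0.025 (median -0.10) and the interferon list to -0.042 (median 0.07). The interferon list stood at -0.18 with members not shown to lack reads in E14-WT. With unshared values alone the Rhox median was 1.91 instead of 0.62. With stricter limits of 0.75 and 55% GC, CpG-rich promoters made up 31.8% of the germline genes that rose and 45.7% of all protein-coding genes. No paired analysis was possible because the table holds no values per sample. Leaving out each replicate, and another normalization and filter, need such values and were not run. Fold changes of genes with few reads lie close to 0, and depth is unknown, so absence of a call does not show absence of a change.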

Other observations

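Outside the lists, further called genes are known from germ cells. According to the authors' deposited table, the RNA-binding protein gene Rbm46 rose by 1.84 in Ring1A+B-DKO over E14-WT, the testis export factor gene Nxf2 by 1.84, the Polycomb protein gene Scml2 by 1.83, the meiotic crossover gene Ccnb1ip1 by 1.65 and the sperm protein gene Spesp1 by 1.65. The oocyte genes Obox6 and Ooep fell to -1.50 and -1.53. Epithelial genes outside the lists rose as well, among them the splicing regulator gene Esrp1 by 2.57, the sodium channel gene Scnn1a by 2.81, the serine protease inhibitor gene Spint2 by 1.20 and the anchoring filament gene Lad1 by 1.87. Secreted and lipid transport genes known from liver and yolk sac rose, with Rbp4 at 2.61 and Mttp at 2.26, while A2m, Gc and Serpina3m fell to -1.66, -1.94 and -2.53. These genes were chosen after their values were seen, and no test was run on them. Of them, A2m, Serpina3m and Obox6 were also called lower in Ezh2-WT over the same E14-WT libraries, at -2.12, -1.63 and -1.96. No listed Y-linked gene was called in Ring1A+B-DKO over E14-WT, with Ddx3y at -1.06, Eif2s3y at -0.79, Usp9y at 0.41 and Zfy1 lowest at -1.53. Ddx3y and Eif2s3y were called lower in Ezh2-WT over the same E14-WT libraries, at -2.67 and -1.92.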
